A study of Mus musculus with 6 samples.

Results

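The insulin-like growth factor (IGF) system was examined in whole kidneys of mice that lack the transferrin receptor TfR1 in the distal nephron. Its 10 members here were 2 pappalysin proteases (Pappa, Pappa2), the ligand Igf1, its receptor Igf1r and the binding proteins Igfbp1 to Igfbp6, out of 24422 genes in the tables. The system was chosen by the measured difference in Pappa2 between the groups, and the other members were then taken by gene symbol. Pappa2 is therefore given as a description with no test. All 10 members had enough counts to be tested.

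RNA sequencing covered 6 kidneys of strain C57BL/6 at postnatal day 60, with 3 control mice (genotype wild type) and 3 TfR1KO;KspCre mice (genotype Tfr1f/f;KspCre), called knockouts from here on, as labelled. In the knockouts the exons for the transmembrane domain of TfR1 are floxed, and a Cre under the Ksp-cadherin promoter is meant to remove them in the distal nephron, so other cells of the kidney keep the gene. The labels do not say whether controls carried a floxed allele or Cre. All mice ate an iron-sufficient diet (220 ppm iron). The comparison asks which transcripts differ at this age between kidneys with and without the deletion.

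IGF1 acts through its receptor Igf1r, a tyrosine kinase that signals through insulin receptor substrates, PI3 kinase and Akt. Most IGF outside cells is held by the binding proteins, and it becomes free when proteases cut them. Pappa and Pappa2 are secreted metalloproteases of this kind. Pappa is best known for cutting Igfbp4, and Pappa2 for cutting Igfbp3 and Igfbp5. The stanniocalcins Stc1 and Stc2 inhibit both. In the kidney Pappa2 is known from the thick ascending limb and macula densa.

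The targeted gene Tfrc (TfR1) was at 139, 168 and 62.0 CPM (counts per 1000000 counts, after TMM scaling for library size and composition) in controls and at 214, 86.0 and 40.6 CPM in knockouts. The groups overlapped, with knockout 1 above every control (log2 fold change -0.11, SE 0.62, edgeR, adjusted p 0.911). Counts over the whole gene in whole kidney include undeleted exons and undeleted cells, so this does not check the labels. The 6 libraries held between 11501053 and 21001341 counts, and the smallest was knockout 3. Proximal tubule markers summed to between 10440 and 13770 CPM in controls, to 5552 CPM in knockout 1, and to 2183 and 1893 CPM in knockouts 2 and 3, so knockout 1 lay between the controls and the other knockouts. Fibroblast and pericyte markers summed to between 291 and 530.3 CPM in controls, and to 809, 3148 and 3327 CPM in knockouts 1 to 3. Macrophage and leukocyte markers summed to between 141 and 152 CPM in controls, and to 269, 796 and 298 CPM in knockouts 1 to 3. Control 2 held 52 counts of Xist and 1451 of the Y-linked Ddx3y, where the other libraries held at least 10458 counts of Xist and at most 4 of Ddx3y. The part of these marker differences in the results that follow was not tested. In whole kidney, fewer cells of a type and less RNA per cell cannot be told apart.

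Promoters of the members were searched because the study concerns iron supply and the hypoxia-inducible factors. The RefSeq table (GRCm38.p6) held windows of 300 bases, from 250 before to 50 after a gene's start, for 9 of the 10 members. The core letters of a hypoxia response element were searched on both strands as ACGTG or GCGTG, which overlap where CACGTG is read from either strand. Igfbp2 had 2 windows, at separate starts, so there were 10 windows in all. The letters were present in 7 of the 10, which belong to 6 of the 9 members, against 43.8% of all 32851 windows in the table. The windows of Igfbp4, Igfbp5 and Igfbp6 held none. The 3 windows below are those of the member that chose the system (Pappa2), of the binding protein that rose (Igfbp2, the first of its windows) and of the one that fell furthest (Igfbp1), and capitals mark the core letters. They lie at chr1:158958126-158958425 (minus strand), chr1:72824230-72824529 (plus strand) and chr11:7197537-7197836 (plus strand).
Pappa2: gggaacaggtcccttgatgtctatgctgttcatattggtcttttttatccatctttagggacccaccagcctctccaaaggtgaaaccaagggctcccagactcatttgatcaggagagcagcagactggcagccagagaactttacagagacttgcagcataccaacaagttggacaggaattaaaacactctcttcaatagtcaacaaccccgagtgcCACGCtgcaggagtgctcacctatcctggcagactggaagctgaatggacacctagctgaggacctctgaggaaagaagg
Igfbp2: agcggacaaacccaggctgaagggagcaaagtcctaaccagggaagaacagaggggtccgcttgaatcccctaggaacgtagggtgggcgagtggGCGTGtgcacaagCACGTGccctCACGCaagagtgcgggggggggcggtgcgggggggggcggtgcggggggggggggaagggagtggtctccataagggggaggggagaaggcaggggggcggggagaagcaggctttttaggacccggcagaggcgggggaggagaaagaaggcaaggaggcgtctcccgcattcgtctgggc
Igfbp1: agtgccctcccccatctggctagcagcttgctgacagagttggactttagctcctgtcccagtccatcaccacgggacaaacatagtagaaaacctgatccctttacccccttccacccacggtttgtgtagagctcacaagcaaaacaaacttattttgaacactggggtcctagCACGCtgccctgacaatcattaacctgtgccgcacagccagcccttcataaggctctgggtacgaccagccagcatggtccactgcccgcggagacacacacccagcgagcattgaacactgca

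The Igfbp2 window shown held 4 matches, all between 155 and 132 bases before the start and including CACGTG, and its other window (chr1:72825137-72825436) held 1, 3 bases before that start. Of the others shown, the Pappa2 and Igfbp1 windows held 1 each. A match in such short letters is a description of the sequence and was not tested for binding. Of the members with matches, Igfbp2 was called higher in knockouts, Igf1r and Igfbp1 were called lower, and Igf1 and Igfbp3 did not pass the test. Pappa2, which also had a match, was chosen for its rise. The part of the matches in these differences was not tested.

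Of the 9 members other than Pappa2, 4 had an adjusted p under 0.05 over all 15171 genes tested (quasi-likelihood test of edgeR, adjusted by the method of Benjamini and Hochberg), against 17.2% of all genes tested. Igfbp2 was higher, where 10.6% of all genes were called higher, and Igf1r, Igfbp1 and Igfbp4 were lower, where 6.64% were called lower. In 5 of the 9 the control and knockout libraries did not overlap, which held for 46.0% of all genes. The comparison that chose Pappa2 also gave these counts, so nothing is read from them. The median log2 fold change of the 9 members was -0.84, and that of all genes tested was 0.02.

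**Figure D1:**
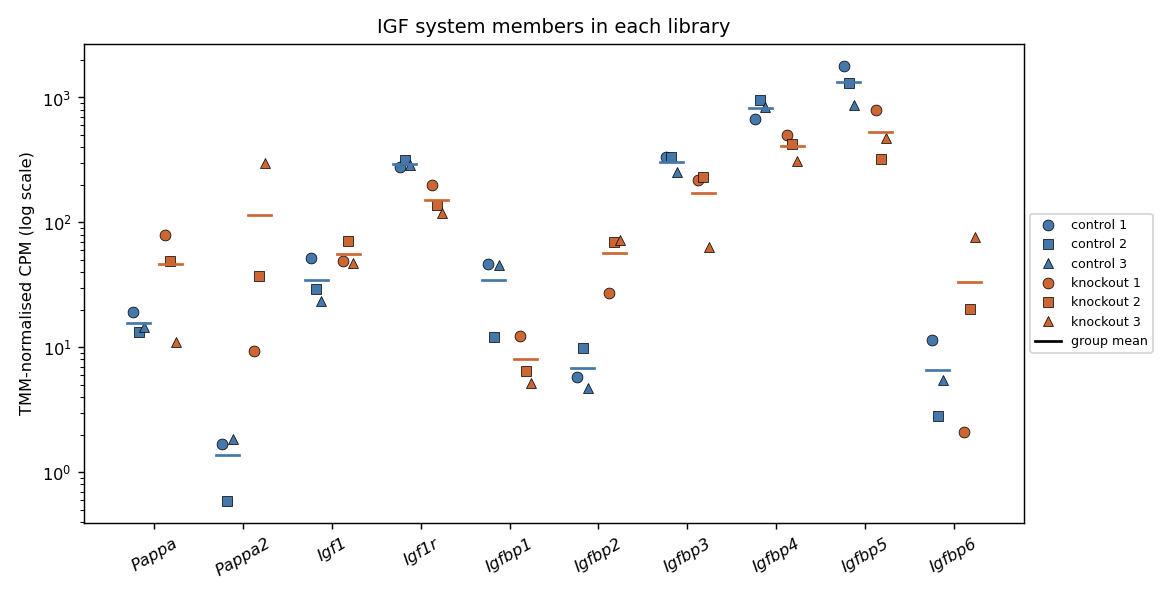
TMM-normalised CPM (log axis) of the 10 members, with 1 point per library, controls in blue and knockouts in orange, the marker shape giving the replicate number and the line the group mean. Pappa2 and Igfbp2 lie above the controls in all 3 knockouts, and Igf1r, Igfbp3, Igfbp4 and Igfbp5 lie below them in all 3.

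Pappa2 (ENSMUSG00000073530, chromosome 1, 160641862 to 160887870, minus strand, mm9) was at 1.69, 0.588 and 1.86 CPM in controls and at 9.33, 37.2 and 300.2 CPM in knockouts. All 3 knockouts lay above all 3 controls, and knockout 3 alone held 3918 counts of the gene, against 10 to 34 counts in a control. The log2 fold change was 6.37 (SE 1.42), and without knockout 3 it was 4.06, so that library carried much of the difference.

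Pappa (ENSMUSG00000028370, chromosome 4, 64785208 to 65018543, plus strand) was at 19.3, 13.2 and 14.5 CPM in controls and at 79.2, 49.2 and 10.96 CPM in knockouts. Knockouts 1 and 2 lay above the controls and knockout 3 lay below them. Its log2 fold change of 1.57 (SE 0.62) did not pass (edgeR, adjusted p 0.112), and leaving out 1 library moved it between 0.94 and 2.03. DESeq2's Wald test called Pappa (adjusted p 0.0368), and limma-voom did not (adjusted p 0.255). Here and wherever it is given below, the Wald test called 32.2% of all genes, against 17.2% with edgeR.

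The library with the most Pappa2 was thus the one with the least Pappa. Per kilobase of transcript, the ratio of Pappa2 to Pappa within a library was 0.11, 0.0556 and 0.16 in controls. It was 0.147, 0.945 and 34.3 in knockouts. This ratio does not depend on scaling between libraries. Knockout 1 lay within the range of the controls, because both genes were higher there, and knockouts 2 and 3 lay above it. The 2 proteases together came to between 1.26 and 1.92 CPM per kilobase in controls and to 8.18, 8.61 and 34.8 CPM per kilobase in knockouts.

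**Figure D2:**
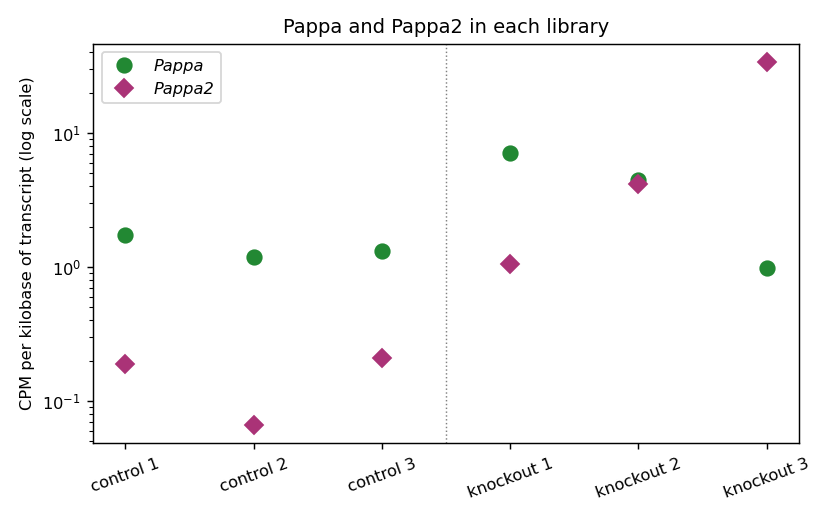
Levels of Pappa (circles) and Pappa2 (diamonds) in each library, as CPM per kilobase of transcript on a log axis, with a dotted line between controls and knockouts. Pappa lies above Pappa2 in the 3 controls and in knockout 1, the levels nearly meet in knockout 2 (4.43 and 4.18), and in knockout 3 Pappa2 (33.8) lies above Pappa (0.986).

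Markers of the segment in which Pappa2 is known were not called higher. Umod, which encodes uromodulin and marks the thick ascending limb, was at 4599, 5328 and 1999 CPM in controls and at 3444, 423 and 259 CPM in knockouts. Nos1, the nitric oxide synthase of the macula densa, was at 2.74, 3.41 and 3.12 CPM in controls and at 2.36, 1.61 and 5.59 CPM in knockouts. Of the 7 markers of thick ascending limb and macula densa, 0 passed the test and 1 (Cldn10, lower in knockouts) had an unadjusted p under 0.05 (edgeR). DESeq2 called 1, the same gene, and limma-voom called 0. For the 7 the median log2 fold change was -0.83, with 5 negative and 2 positive (Cldn16 at 0.65 and Nos1 at 0.03). Cldn16, Nos1 and Ptgs2 were each highest in knockout 3, at 34.5, 5.59 and 6.21 CPM. Umod, Slc12a1, Kcnj1 and Cldn10 were each highest in a control. The part of these markers in the Pappa2 value was not tested.

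The genes whose pattern was most like that of Pappa2 over the 6 libraries were Gtf2f2, Mprip, Speg, Ddah2 and Cd9, with Pearson correlations of log2 CPM between 0.996 and 0.998 among 11337 genes ranked (tested genes whose log2 CPM averaged 3 or more). The 6 points share the split into groups, so many genes rank high. Among the members, Igfbp2 had a correlation of 0.888 with Pappa2, Pappa one of 0.105 and Igf1r one of -0.98.

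The pappalysin inhibitors are secreted glycoproteins. Stc2 was at 6.87, 3.06 and 3.90 CPM in controls and at 16.5, 15.1 and 14.8 CPM in knockouts. All knockouts lay above all controls, and Stc2 rose 3.34-fold (log2 fold change 1.74, SE 0.33, edgeR, adjusted p 0.0303). Stc1 was at 11.1, 11.8 and 8.77 CPM in controls and at 18.4, 14.2 and 32.3 CPM in knockouts. The groups of Stc1 did not overlap either, but its log2 fold change of 1.03 (SE 0.33) did not pass (edgeR, adjusted p 0.0687). Stc1 was called with library size alone (edgeR, adjusted p 0.0365) and with DESeq2's Wald test (adjusted p 0.0232).

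The ligand Igf1 (ENSMUSG00000020053, chromosome 10, 87321010 to 87399792, plus strand) was at 51.8, 29.3 and 23.6 CPM in controls and at 48.9, 71.1 and 47.0 CPM in knockouts. Control 1 lay among the knockouts, and the log2 fold change of 0.67 (SE 0.32) did not pass (edgeR, adjusted p 0.168). The growth hormone receptor Ghr, through which growth hormone drives Igf1, was at 656, 1169 and 562 CPM in controls and at 313, 157 and 107 CPM in knockouts. Ghr fell 4.13-fold (log2 fold change -2.05, SE 0.48, edgeR, adjusted p 0.0367). Of the 8 proximal tubule markers 7 fell as well, and the part of that cell type in the Ghr value was not tested.

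Igf2, the other IGF ligand, was at 3.98 and 2.65 CPM in controls 1 and 2, at 221 CPM in control 3, and at 2.06, 5.87 and 20.2 CPM in knockouts. Control 3 thus decided the difference of -3.04 on the log2 scale (SE 1.72, edgeR, adjusted p 0.233), which turned to 1.49 without that library. The same library held 74.9 CPM of the albumin gene Alb, against 7.64 to 8.01 CPM in the other controls and 2.46 to 6.58 CPM in knockouts. Of the other hepatocyte markers listed, Apoa1 (3.36 CPM) and Ttr (159.5 CPM) were also highest in control 3. Serpina1a went the other way and was lowest there (3.78 CPM). Igf2 overlaps the antisense gene Igf2as, and without a stated strand setting their reads cannot be told apart.

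The receptor Igf1r (ENSMUSG00000005533, chromosome 7, 75097713 to 75371484, plus strand) was at 276, 319 and 287 CPM in controls and at 198, 137 and 118 CPM in knockouts. All knockouts lay below all controls. Igf1r fell 1.95-fold (log2 fold change -0.96, SE 0.22, edgeR, adjusted p 0.0369). Its controls had an SD of 22.4 CPM around a mean of 294 CPM, and its knockouts an SD of 41.8 CPM around 151 CPM (n = 3 each).

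Igf2r, which takes up IGF2 for breakdown in lysosomes, was at 159, 224 and 190.0 CPM in controls and at 130.4, 112 and 111 CPM in knockouts. Igf2r fell 1.63-fold (log2 fold change -0.70, SE 0.17, edgeR, adjusted p 0.0414), a call that library size alone ended (-0.42 on the log2 scale, edgeR, adjusted p 0.0686). The insulin receptor-related receptor Insrr, an alkali sensor of the kidney, fell 2.33-fold (log2 fold change -1.22, SE 0.31, edgeR, adjusted p 0.0439). That call ended with upper quartile scaling (edgeR, adjusted p 0.0508) and with library size alone (edgeR, adjusted p 0.062). The insulin receptor Insr was at 178, 181 and 189 CPM in controls and at 142, 147 and 125 CPM in knockouts, without overlap, and did not pass (log2 fold change -0.40, SE 0.14, edgeR, adjusted p 0.0782). DESeq2's Wald test called Insr (adjusted p 0.00915).

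The 6 binding proteins went different ways. Igfbp2 rose, Igfbp1 and Igfbp4 fell, and Igfbp3, Igfbp5 and Igfbp6 did not pass the test. All but Igfbp4 and Igfbp6 lie in tail-to-tail pairs. Igfbp2 and Igfbp5 are 5457 bases apart on chromosome 1, and Igfbp1 and Igfbp3 are 3539 bases apart on chromosome 11, in each case with 0 annotated genes between them.

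Igfbp2 (ENSMUSG00000039323, chromosome 1, 72871077 to 72899048, plus strand) binds both IGF ligands. It was at 5.82, 9.93 and 4.74 CPM in controls and at 27.4, 70.1 and 72.2 CPM in knockouts. The lowest knockout lay above the highest control. Igfbp2 rose 8.27-fold (log2 fold change 3.05, SE 0.46, edgeR, adjusted p 0.0276), and its log2 fold change stayed between 2.83 and 3.41 when any 1 library was left out.

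Its neighbour Igfbp5 (ENSMUSG00000026185, chromosome 1, 72904506 to 72921458, minus strand), the substrate shared by both pappalysins, was at 1794, 1304 and 874 CPM in controls and at 796, 319 and 473 CPM in knockouts. The groups did not overlap, though control 3 and knockout 1 were close. The log2 fold change of -1.32 (SE 0.42) did not pass (edgeR, adjusted p 0.0685), and leaving out 1 library moved it between -1.75 and -1.06. It passed without knockout 1 (edgeR, adjusted p 0.0149), where 34.4% of all genes were called, and did not pass without any other library (edgeR, adjusted p 0.104 to 0.173). DESeq2's Wald test called Igfbp5 (adjusted p 0.00556). The ratio of Igfbp2 to Igfbp5 per kilobase was 0.0149, 0.035 and 0.0249 in controls and 0.158, 1.01 and 0.702 in knockouts. With the union of a gene's exons as its length, it was 0.0106 to 0.0248 in controls and 0.112, 0.715 and 0.497 in knockouts. The groups stayed apart with either length, and the size of the ratio depends on the transcript model.

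Igfbp1 (ENSMUSG00000020429, chromosome 11, 7097785 to 7102549, plus strand), which insulin lowers and hypoxia raises in liver, was at 46.4, 12.1 and 45.9 CPM in controls and at 12.3, 6.47 and 5.21 CPM in knockouts. Control 2 and knockout 1 held nearly the same level, so the groups overlapped by 1 library. Igfbp1 fell 4.33-fold (log2 fold change -2.11, SE 0.57, edgeR, adjusted p 0.0471). Its call was lost with limma-voom (adjusted p 0.0981) and with library size alone (edgeR, adjusted p 0.0508).

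Igfbp3 (ENSMUSG00000020427, chromosome 11, 7106089 to 7113926, minus strand), the main carrier of IGF1 in serum, was at 336, 332 and 252 CPM in controls and at 219, 230.4 and 63.8 CPM in knockouts. All knockouts were below the controls, and knockout 3 was far below the other knockouts. Its log2 fold change was -0.84 (SE 0.46, edgeR, adjusted p 0.216), and -0.45 without knockout 3.

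Igfbp4 (ENSMUSG00000017493, chromosome 11, 98902558 to 98913969, plus strand), the classic substrate of Pappa, was at 673, 952 and 836 CPM in controls and at 505, 422 and 308 CPM in knockouts. The groups did not overlap. Igfbp4 fell 1.99-fold (log2 fold change -0.99, SE 0.26, edgeR, adjusted p 0.045), a call that was lost with library size alone (log2 fold change -0.72, edgeR, adjusted p 0.0561).

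Igfbp6 (ENSMUSG00000023046, chromosome 15, 101974793 to 101979942, plus strand), which prefers IGF2, was at 11.5, 2.82 and 5.52 CPM in controls and at 2.11, 20.1 and 77.1 CPM in knockouts. Knockout 1 lay below all controls and the other knockouts above them. The log2 fold change of 2.31 (SE 1.13) did not pass (edgeR, adjusted p 0.176) and was 0.74 without knockout 3. It passed only without knockout 1, at 2.86 (edgeR, adjusted p 0.026), where 34.4% of all genes were called. Igfbp6 did not pass without any other library (edgeR, adjusted p 0.2 to 0.636). The summed fibroblast and pericyte markers, given above, were also lowest in knockout 1 among the knockouts, and their part in the Igfbp6 value was not tested.

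Levels of different genes were compared only per kilobase of the longest coding transcript. In controls Igfbp4 was the highest member, with 392 ± 67.1 CPM per kilobase (SD, n = 3), followed by Igfbp5 with 221 ± 76.6, Igfbp3 with 127 ± 19.5 and Igf1r with 70.3 ± 5.35. These 4 did not overlap with their neighbours in the order, except that Igfbp4 (from 285) and Igfbp5 (up to 299) overlapped with the exon union as length. Igfbp1 (22.8 ± 12.9), Igfbp6 (5.95 ± 3.99), Igfbp2 (5.23 ± 2.10) and Igf1 (4.90 ± 2.10) each overlapped with the next in the order, apart from Igf1, which lay above Pappa (1.41 ± 0.286). Pappa2 was the lowest, at 0.155 ± 0.0778 CPM per kilobase. The annotated Igf1r transcript of 4181 bases is little longer than a coding sequence of this receptor would be, and a longer model used in the counting would make its level per kilobase too high.

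In knockouts Igfbp4, Igfbp5 and Igfbp3 had the 3 highest group means, at 197 ± 47.2, 88.1 ± 40.6 and 70.7 ± 38.5 CPM per kilobase (SD, n = 3), but the order differed between libraries. In knockout 3 Igfbp3 (26.4 CPM per kilobase) was 7th, below Igfbp6 (69.3) and Igfbp2 (55.2) among others. Igfbp2 was 6th to 8th in a control and 3rd to 5th in a knockout. In knockout 2 its order against Igfbp5 (53.1 CPM per kilobase) turned with the length used, from 53.6 CPM per kilobase to 38.0 with the exon union. Igfbp1 was 5th in every control, 6th in knockout 1 and 9th in knockouts 2 and 3. Pappa2 was 10th in every control and in knockouts 1 and 2, and 5th in knockout 3 alone.

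The binding proteins together came to 804, 827 and 687 CPM per kilobase in controls and to 495, 426 and 380.0 CPM per kilobase in knockouts. The groups did not overlap, nor did they with library size alone, where the sums were between 635 and 769 in controls and between 431 and 516 in knockouts. Igfbp2 made up 0.554%, 0.919% and 0.528% of this sum in controls and 4.24%, 12.6% and 14.5% in knockouts. Igfbp5 made up 37.2%, 26.3% and 21.2% in controls and 26.8%, 12.5% and 20.7% in knockouts. Igfbp4 made up 51.0% ± 9.69 in controls and 44.9% ± 5.41 in knockouts (SD, n = 3). The shares of Igfbp4 and of Igfbp5 overlapped between the groups, whereas those of Igfbp2 did not. With the exon union as length the shares of Igfbp2 were 0.416% to 0.725% in controls and 3.37%, 10.4% and 11.4% in knockouts.

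**Figure D3:**
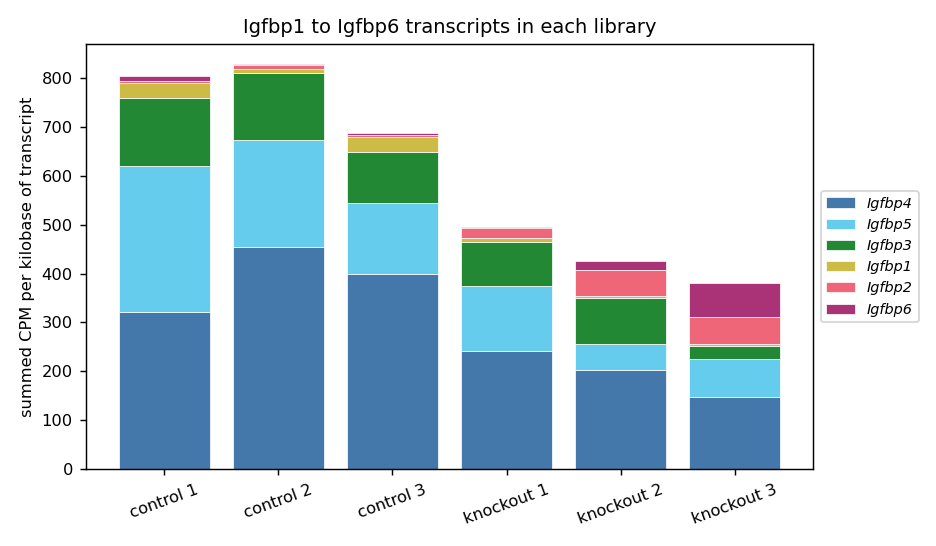
Stacked levels of Igfbp1 to Igfbp6 in each library, as CPM per kilobase of transcript on a linear axis from 0. The stacks of the controls reach 687 to 827 and those of the knockouts 380.0 to 495, and the Igfbp2 segment is a sliver in controls and wider in knockouts, as is that of Igfbp6 in knockout 3 (18.2% of the sum).

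Of 26 further genes of the pathway 25 were tested, since Igfbpl1 had 0 counts in every library. Of these 25, 6 passed, 3 higher (Stc2, Adamts1 and Akt1) and 3 lower (Ghr, Igf2r and Insrr), with a median log2 fold change of -0.30. The share called was 24.0%, near the 17.2% of all genes. Adamts1, a secreted metalloprotease of the extracellular matrix, was at 73.9, 70.5 and 37.2 CPM in controls and at 156, 198 and 195 CPM in knockouts, a 3.02-fold rise (log2 fold change 1.60, SE 0.28, edgeR, adjusted p 0.0286). Akt1, a kinase downstream of the receptor, was at 113, 101 and 99.0 CPM in controls and at 151, 161 and 187 CPM in knockouts, a 1.60-fold rise (log2 fold change 0.67, SE 0.15, edgeR, adjusted p 0.0331). Its paralog Akt2 did not pass (-0.11 on the log2 scale, SE 0.14, edgeR, adjusted p 0.596), which turned to 0.16 with library size alone.

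The receptor substrates Irs1 and Irs2 had log2 fold changes of -0.55 (SE 0.21, edgeR, adjusted p 0.102) and -0.66 (SE 0.34, edgeR, adjusted p 0.196) and did not pass. The forkhead factors Foxo1 and Foxo3, which Akt holds out of the nucleus, did not pass either, at -0.36 (SE 0.18) and -0.69 (SE 0.41). Igfals, the serum partner of Igfbp3, was lower in all 3 knockouts than in any control (log2 fold change -1.61, SE 0.45) but did not pass (edgeR, adjusted p 0.0529). It was called in 4 of the 16 alternatives, with the size factors of DESeq2 (edgeR, adjusted p 0.0499), with no filter on low counts (edgeR, adjusted p 0.0499), with DESeq2's Wald test (adjusted p 0.00392) and without knockout 1 (edgeR, adjusted p 0.0222). The Wald test called 32.2% of all genes, and the setting without knockout 1 called 34.4%. Igfbp7, a related secreted protein with weak affinity for IGF, was at 1098, 949 and 1269 CPM in controls and at 1053, 1130.0 and 803 CPM in knockouts, and the groups overlapped (log2 fold change -0.15, SE 0.25, edgeR, adjusted p 0.678, turning to 0.11 with library size alone).

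**Figure D4:**
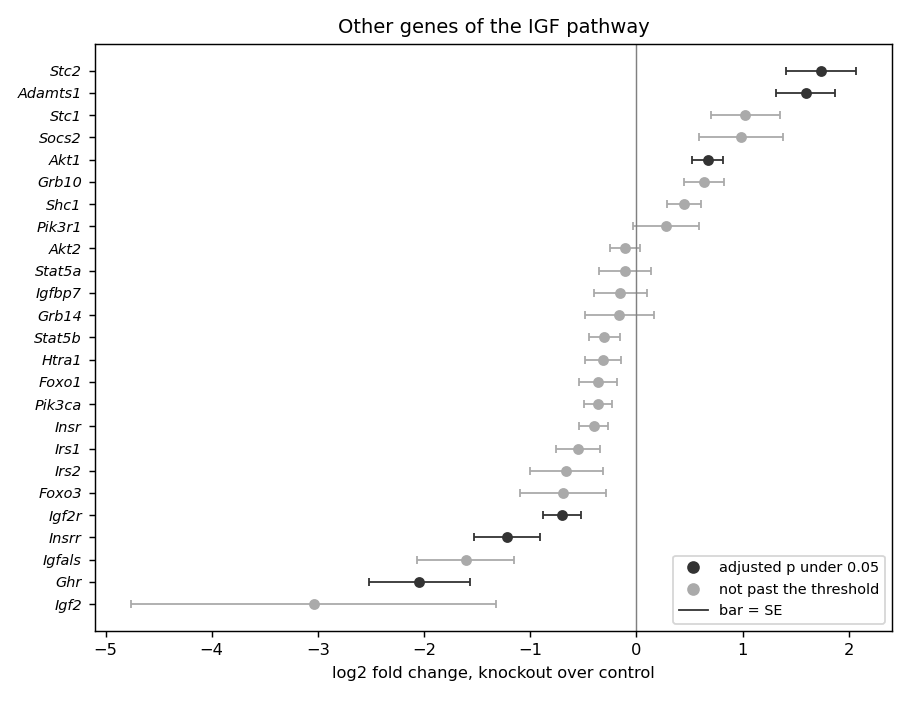
Log2 fold changes (knockout over control, bars are SE, n = 3 per group) of the 25 further genes tested, dark where the adjusted p was under 0.05. Stc2 (1.74) and Adamts1 (1.60) lie furthest to the right among those that passed and Ghr (-2.05) furthest to the left, and Igf2 (-3.04) has the widest bar (SE 1.72).

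The calls depended on the number of libraries and on which were used. Without any 1 of the 3 controls, without knockout 2 or without knockout 3, 0 of the 9 members other than Pappa2 were called (edgeR), and between 4 and 6 still had an unadjusted p under 0.05. Nearly all calls over all genes were lost in these settings as well. The share called was 0% without any 1 control, 0.474% without knockout 2 and 0.013% without knockout 3. Without knockout 1, 6 of the 9 were called, where 34.4% of all genes were called. Without control 2, the library with Y-linked transcripts, the log2 fold changes of Igfbp2, Igfbp1, Igfbp4 and Igf1r were 3.41, -2.53, -0.89 and -0.91, and none was called (edgeR, adjusted p between 0.118 and 0.139). The direction of each member was the same in all 16 alternatives run, and 0 of the 9 were called with a term for Xist against Y-linked expression (5 at an unadjusted p under 0.05, edgeR). With that term 0% of all genes were called.

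**Figure D5:**
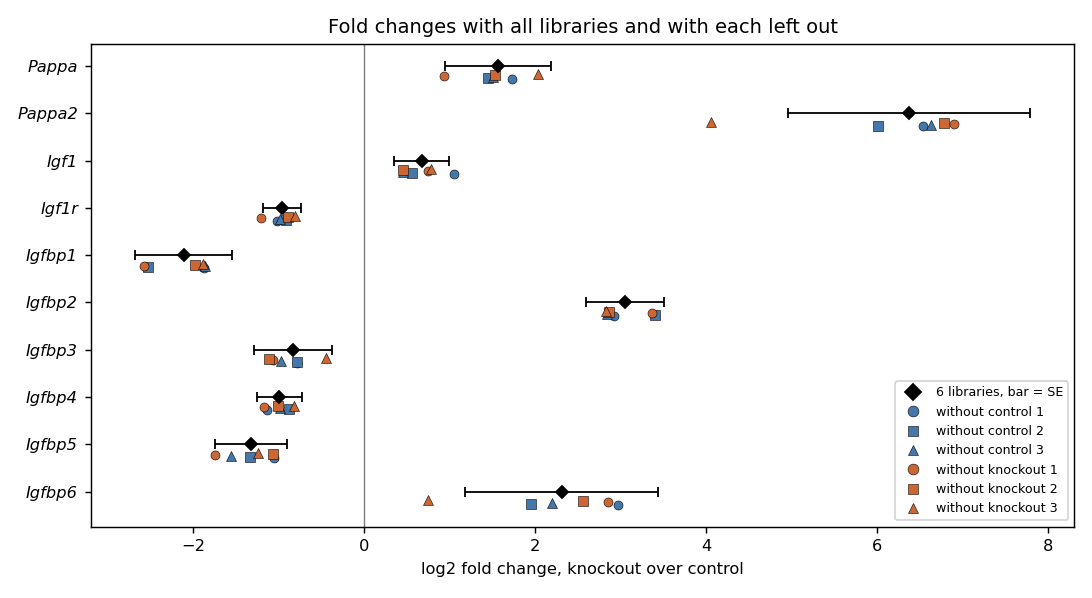
Log2 fold change (knockout over control) of each member with 6 libraries (black diamonds, bars are SE) and with each library left out (blue for controls, orange for knockouts). No point crosses 0, and the widest shifts are those of Pappa2 (6.37 to 4.06) and Igfbp6 (2.31 to 0.74) without knockout 3.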

How the data were processed

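Poly-A RNA of 6 whole kidneys was sequenced with single-end reads of 100 bases. Per the study's methods and the submitters' processing notes, the authors used CASAVA 1.8.2, trimmed with Trimmomatic, aligned to mm9 with TopHat2 2.0.11, kept uniquely mapped reads and deposited raw counts per gene from HTSeq, in 1 table per group. The gene annotation and strand setting are not given in the sources used here. Groups and replicate numbers came from the sample titles, and the study states 3 biological replicates per group. A search for libraries deposited more than once found none, since no pair of replicates agreed within counting noise (chi-square per degree of freedom of 55.9 to 131.6). It does not show that the replicates are separate mice.

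Counts were analysed with edgeR 4.0.16 (limma 3.58.1, R 4.3.3). The filter filterByExpr left 15171 genes, TMM was the normalization, and the quasi-likelihood test (legacy version) was run over all libraries with no covariate. Adjustment was by Benjamini-Hochberg across every gene tested, with a threshold of 0.05. SE is the log2 fold change divided by the square root of F. The test was first run on simulated counts that gave every gene the same dispersion. The simulation did not model the spread of each gene in these libraries, so nothing about the calls is read from it. The text names all 10 members, 7 pathway genes set by name, every other pathway gene with an adjusted p under 0.05, further pathway genes chosen after their values were seen, and the 5 genes most correlated with Pappa2. The members and lists were chosen with earlier results of these data known. Coordinates are from GENCODE M1 (NCBIM37, the assembly of mm9), which held all 10 members. Their longest coding transcripts shared no 100-base word with the longest coding transcript of any other gene. Noncoding genes and other transcripts were not searched. The alternatives included DESeq2 1.42.0 and limma-voom.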

Additional observations from a re-analysis of the deposited data

How the results depend on the processing

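Over all genes, 2612 calls (17.2%) became 4882 (32.2%) with DESeq2's Wald test, 3647 (24.0%) with library size alone and 2030 (13.4%) with limma-voom. They became 1987 when a 2-fold change was also required. With the replicate block 0 genes were called (5432 at an unadjusted p under 0.05, edgeR), and with the Xist-to-Y covariate 0 (4219 genes). The calls ranged from 0 to 5332 when 1 library was left out. The 4 calls among the 9 members other than Pappa2 became 6 with DESeq2's Wald test (adding Pappa and Igfbp5), 2 with library size alone, 3 with limma-voom, 2 when a 2-fold change was also required, 0 with the replicate block and 0 with the covariate, and ranged from 0 to 6 when 1 library was left out. With Pappa2, which chose the system and whose call is no result, the 5 became 7, 3, 3, 3, 0 and 0 in the same order, and ranged from 0 to 7. The 6 calls among the other pathway genes became 11 with DESeq2's Wald test, 0 with the replicate block and 0 with the covariate, and ranged from 0 to 9. For the replicate block, deviations from the group mean correlated at -0.13, 0.01 and 0.21 between libraries 1, 2 and 3 of either group. Not every library correlated best with its own number. Deviations from a mean of 3 libraries depend on each other, so these values cannot settle whether the numbers pair the libraries. The cause of these shifts was not tested.

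Library size alone moved the median over all genes, on the log2 scale, from 0.021 to 0.29 and the share of calls that were higher from 61.4% to 81.8%. It turned Igfbp7 to 0.11, Grb14 to 0.12, Akt2 to 0.16 and Stat5a to 0.15. Leaving out 1 library moved Igf2 between -4.26 and 1.49, Grb14 between -0.53 and 0.10, Pik3r1 between -0.0745 and 0.46, and Stat5a between -0.30 and 0.13. With the exon union as length, the control level of Igfbp3 moved from 127 to 97.8 CPM per kilobase, that of Igfbp2 from 5.23 to 3.70 and that of Igf1 from 4.90 to 3.52. In the main test (edgeR, TMM, all libraries) the smallest adjusted p of any gene was 0.0271, so all calls of that test lay close to the threshold. Some alternatives gave smaller values, such as 8.94e-09 for Igfbp2 with DESeq2's Wald test.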
